A study of Mus musculus with 2 samples.

Results

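The genes described here encode the enzymes of glycolysis, lactate dehydrogenase, the pyruvate dehydrogenase complex and the tricarboxylic acid (TCA) cycle. They were the 35 genes of a fixed list of symbols, and all 35 were found among the 18159 genes of the mRNA-seq table. The tissue was jejunal smooth muscle, that is, the muscle layers peeled from the mucosa of the jejunum, taken at 15 days of age from mice on a C57BL/6 background. *Dnmt1*-WT mice carried the *smMHC* Cre-eGFP transgene and had *Dnmt1* intact. *Dnmt1*-KO mice carried the same transgene together with floxed *Dnmt1* alleles, so that the maintenance DNA methyltransferase was deleted where the *Myh11* promoter drives Cre. That promoter is active in smooth muscle cells (SMCs), those of blood vessels included, while the tissue also holds other cells, such as nerve and immune cells, in which it is not known to be active. The strain label is the same for both samples, Tg(Myh11-cre,-EGFP) with Dnmt1lox/lox, and the free-text description of the *Dnmt1*-WT sample names the knockout, whereas its title and genotype label give *Dnmt1*-WT. There was 1 library for each genotype, prepared from 4 mice (2 male and 2 female), so no difference below has a replicate check and none was tested.

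Glycolysis splits glucose into pyruvate in the cytosol and yields ATP and NADH. Lactate dehydrogenase interconverts pyruvate and lactate, while the pyruvate dehydrogenase complex commits pyruvate to acetyl-CoA, which citrate synthase brings into the TCA cycle in the mitochondrial matrix. Smooth muscle is known for producing lactate from glucose even when oxygen is available. Many steps are served by several isozymes, each from its own gene, whose proportions differ between muscle, nerve, liver and blood cells.

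Levels were given as FPKM, that is, fragments scaled to transcript length and to the number of mapped fragments, so that levels can be compared between genes. Read counts per gene were not used here, so the number of reads behind each value is unknown. For the libraries as a whole, the paper lists more mapped mRNA-seq reads for *Dnmt1*-WT than for *Dnmt1*-KO. The part of this difference in low values was not tested. The FPKM of all genes added up to 429698 for *Dnmt1*-WT and 460845 for *Dnmt1*-KO. *Dnmt1* itself was at 11.6 FPKM and 7.58 FPKM, a value for the whole gene in a tissue where only part of the cells lose it. As to the tissue label, each of 10 smooth muscle genes, *Acta2* and *Myh11* among them, was at 80.4 FPKM or more in both libraries. All 10 were lower in the *Dnmt1*-KO library, and their sum went from 19820 to 13509 FPKM. Sums of other marker lists were higher in the *Dnmt1*-KO library, from 49.6 to 188 FPKM for 8 leukocyte genes, 119 to 1229.6 FPKM for 8 adipocyte genes and 36.4 to 83.8 FPKM for 4 endothelial genes. In such bulk tissue, fewer cells of a type and less RNA per cell cannot be told apart. The part of these shifts in the values below was not tested.

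Most of the enzyme genes had a lower level in *Dnmt1*-KO, by small factors. The ratio of their FPKM, *Dnmt1*-KO over *Dnmt1*-WT, was below 1 for 28 of the 35 genes and above 1 for 7. This compares with 49.1% below 1 and 50.3% above 1 among the 16102 genes above 0 FPKM in both libraries, and with 53.0% and 47.0% among the 6420 genes with a geometric mean of 10 FPKM or more. Their median log2 ratio was -0.24, with 0.01 over all those genes and -0.03 over the 6420 more abundant genes. A difference of at least 1.5-fold was taken as a call. It was reached by 2 genes on the lower side, *Pfkm* and *Suclg2*, and by 2 on the higher side, *Pgam2* and *Eno3*, while the remaining 31 lay within 1.5-fold. Among all genes above 0 in both libraries 12.6% were lower by that fold and 19.7% higher, and among the more abundant genes 9.05% and 9.36%. Either way, 4 of 35 genes were past 1.5-fold, beside 32.3% of all genes and 18.4% of the more abundant ones. At 2-fold, the higher side still held *Pgam2* and *Eno3*, with 11.8% of all genes, and the lower side held none, with 4.98% of all genes. The summed level of the 35 genes went from 4497 to 4033 FPKM, or from 1.05% to 0.875% of the FPKM sum of the library.

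**Figure D1:**
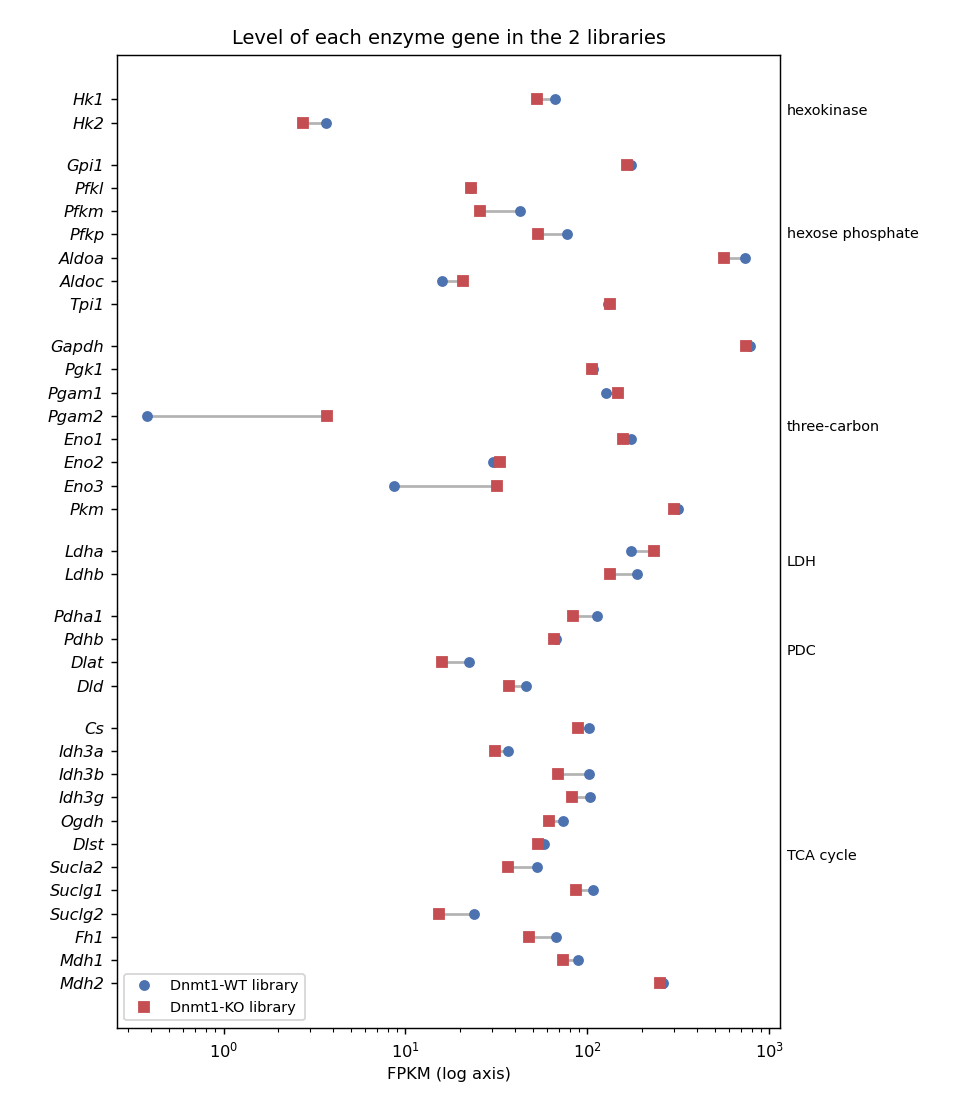
Level of each of the 35 enzyme genes in FPKM (log axis) in the *Dnmt1*-WT library (circles) and the *Dnmt1*-KO library (squares), joined by a line and grouped by step. No error can be drawn with 1 library per genotype. Symbols nearly coincide for *Pfkl*, *Tpi1*, *Pgk1* and *Pdhb*, and lie farthest apart for *Pgam2* and *Eno3*.

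The direction differed between parts of the pathway, though not simply between glycolysis and the cycle. All 16 genes of the pyruvate dehydrogenase complex and the TCA cycle had a ratio below 1, where 51.5% of the 3582 genes in the same range of geometric mean did. Their median log2 ratio was -0.31, against -0.01 over those 3582 genes, and 1 of the 16 was lower by 1.5-fold, beside 8.91%. The 19 genes of glycolysis and lactate dehydrogenase divided into 12 below 1 and 7 above 1, with a median log2 ratio of -0.06. In sums, the 17 glycolytic genes went from 2811 to 2568 FPKM and the 16 genes of the complex and the cycle from 1325 to 1099 FPKM. The glycolytic sum was thus 2.12 times the other within the *Dnmt1*-WT library and 2.34 times within the *Dnmt1*-KO library, a quotient that scaling between libraries cannot move.

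**Figure D2:**
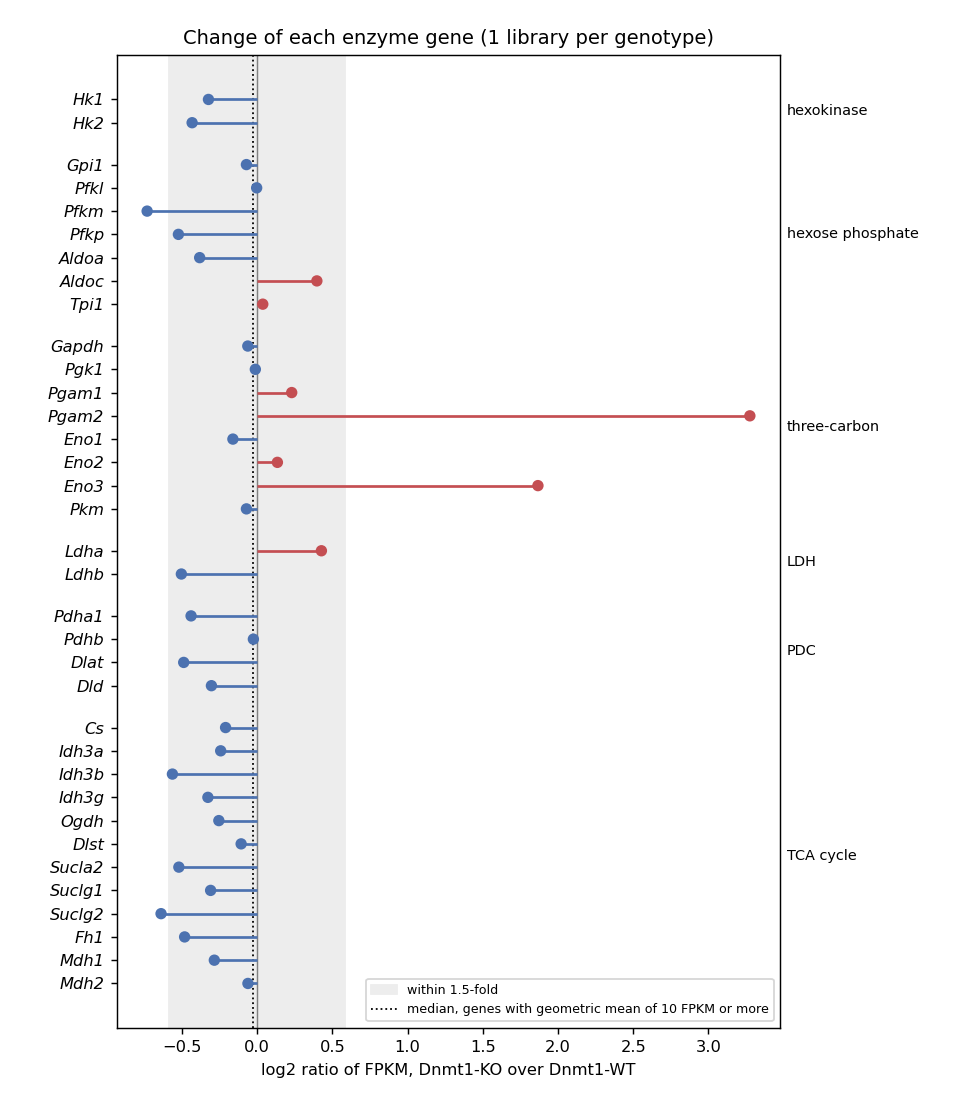
Log2 ratio of FPKM, *Dnmt1*-KO over *Dnmt1*-WT, of each enzyme gene, in the order of the pathway, with the band within 1.5-fold shaded and the median of genes with a geometric mean of 10 FPKM or more dotted (-0.03). Every gene of the pyruvate dehydrogenase complex (PDC) and the TCA cycle lies left of 0, and *Pgam2* (3.28) and *Eno3* (1.87) stand far to the right.

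Hexokinases trap glucose in the cell as its phosphate. *Hk1*, the broadly expressed form, was the main one, at 66.2 FPKM in *Dnmt1*-WT and 52.9 FPKM in *Dnmt1*-KO (ratio 0.799). *Hk2*, the insulin-responsive form of muscle and fat, was low in both, at 3.67 and 2.72 FPKM (ratio 0.741). *Hk1* made up 94.7% and 95.1% of their sum, so the proportions were close in the 2 libraries while the sum was 0.796 times as high. *Gpi1*, which turns glucose phosphate into fructose phosphate, stood at 173.5 and 165.2 FPKM, a ratio of 0.952.

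Phosphofructokinase is the committing and most tightly controlled step of glycolysis, and works as a tetramer of muscle (*Pfkm*), liver (*Pfkl*) and platelet (*Pfkp*) subunits. *Pfkm*, on chromosome 15 of GRCm38 from 98092589 to 98132451, had the lowest ratio of all 35 genes, 0.602, with 42.5 FPKM in *Dnmt1*-WT and 25.6 FPKM in *Dnmt1*-KO. It shares 341 of its 3340 exonic bases with *Gm26513* on the same strand, and reads there cannot be assigned to either. *Pfkp*, the most abundant subunit, was at 77.1 and 53.6 FPKM (ratio 0.696), inside the 1.5-fold band. *Pfkl* hardly differed, at 22.9 FPKM in both libraries. The family sum was 0.717 times as high in *Dnmt1*-KO, with the share of *Pfkl* 16.1% in *Dnmt1*-WT and 22.4% in *Dnmt1*-KO and that of *Pfkm* 29.8% and 25.1%. The muscle subunit went from 1.85 times to 1.12 times the liver subunit.

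Aldolase cuts the fructose bisphosphate into triose phosphates. *Aldoa*, the muscle form and after *Gapdh* the second most abundant gene of the pathway, was at 737 FPKM in *Dnmt1*-WT and 565 FPKM in *Dnmt1*-KO (ratio 0.767). This was the largest absolute difference of the 35 genes, and it accounted for most of the lower glycolytic sum. *Aldoc*, the form known from brain, differed the other way, from 15.8 to 20.8 FPKM (ratio 1.32), and its share of the pair was 2.10% and 3.55%. *Tpi1*, which equilibrates the triose phosphates, was at 130.3 and 133.7 FPKM, a ratio of 1.03 that turned to 0.957 when each library was divided by its FPKM sum.

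Among the enzymes from triose phosphate to pyruvate, the abundant genes hardly differed and the scarce muscle isozymes were much higher. *Gapdh*, which makes NADH, was the most abundant gene of the pathway with 782 and 749 FPKM (ratio 0.958). Stretches of its transcripts recur nearly unchanged in 55 other annotated genes, of which *Gm12070* was listed at 15.2 and 18.2 FPKM, so its value may include reads of such copies. *Pgk1*, the first ATP-yielding enzyme, was at 107 and 106 FPKM (ratio 0.992), and *Pkm*, the pyruvate kinase of muscle and most other tissues, at 314 and 299 FPKM (ratio 0.952). *Pkm* shares 767 of its 5001 exonic bases with *Gm49759* on the same strand, and reads there cannot be assigned to either. *Eno1*, the ubiquitous enolase, was at 174.6 and 156 FPKM (ratio 0.894), and its near-identical copy *Eno1b* at 5.2 and 6.25 FPKM. *Eno2*, the neuronal enolase, was at 30.1 and 33.1 FPKM (ratio 1.10). Enteric neuron markers were higher too, for 7 of 9 genes, beside 50.3% of all genes, and in sum (683 and 794 FPKM). Their part in the value of *Eno2* was not tested. *Pgam1*, the common phosphoglycerate mutase, was at 125.8 and 147.6 FPKM (ratio 1.17).

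*Pgam2* and *Eno3* encode the muscle forms of phosphoglycerate mutase and enolase, known from skeletal muscle and heart. *Pgam2*, on chromosome 11 of GRCm38 from 5801640 to 5803733 on the minus strand, was at 0.38 FPKM in *Dnmt1*-WT and 3.68 FPKM in *Dnmt1*-KO, a ratio of 9.68. The size of that ratio rests on a value near the lower end of the scale, and adding 1 to both values gave 3.39. *Eno3*, on the same chromosome from 70657202 to 70662513 on the plus strand, was at 8.70 FPKM and 31.7 FPKM (ratio 3.65), and adding 1 gave 3.37. No other annotated gene carries a near-identical stretch of either. Since *Eno1* was lower while *Eno3* was higher, the enolase sum was nearly the same, 213 and 221 FPKM, and the share of *Eno3* was 4.08% in *Dnmt1*-WT and 14.4% in *Dnmt1*-KO. For the mutase, *Pgam2* made up 0.301% and 2.43% of a sum of 126 and 151 FPKM, so *Pgam1* supplied nearly all of it in both libraries.

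Genes of striated muscle were examined beside these values. Of 9 skeletal muscle markers listed, 8 were above 0 FPKM in both libraries, and 6 of the 8 were higher by 1.5-fold or more in *Dnmt1*-KO, beside 19.7% of all genes. All but *Ckm* and *Acta1* were below 10 FPKM in both. The fast troponins *Tnnt3* (2.35 and 8.57 FPKM) and *Tnni2* (2.58 and 9.5 FPKM) and the skeletal actin *Acta1* (5.17 and 12.2 FPKM) were among them. *Ckm*, muscle creatine kinase, was lower, at 96.7 and 41.4 FPKM, and it set the sum of the list, which was 108 and 75.1 FPKM. The fast myosin genes *Myh1* and *Myh2* were below 1 FPKM in both libraries, and *Atp2a1* was listed at 0 in *Dnmt1*-WT and at 0.08 FPKM in *Dnmt1*-KO. The part of striated muscle RNA in *Pgam2* and *Eno3* was not tested. Muscle isozymes of this pathway did not all differ in one direction, since *Pfkm* and *Aldoa* were lower.

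The promoters of *Pgam2* and *Eno3* hold fewer CpG dinucleotides than those of other isozymes of the same step, which is why they are shown. Windows from 250 bases before to 50 bases after the transcription start were taken from RefSeq (GRCm38.p6), in which 34 of the 35 genes had at least 1 window. Of the 26 genes with a single window, *Pgam2* had 1 CpG dinucleotide and *Eno3* had 3 in 300 bases, while the other 24 genes had 12 to 30. Over the 32851 windows of all genes the median was 7, and 31.4% held 3 or fewer. The 250 bases before the start are printed 5′ to 3′ on the strand of the gene, with CpG dinucleotides in capitals, for *Pgam2* (chr11:5803797-5804046, minus strand), *Pgam1* (chr19:41911621-41911870, plus strand), *Eno3* (chr11:70656926-70657175, plus strand) and *Eno2* (chr6:124769674-124769923, minus strand).
Pgam2: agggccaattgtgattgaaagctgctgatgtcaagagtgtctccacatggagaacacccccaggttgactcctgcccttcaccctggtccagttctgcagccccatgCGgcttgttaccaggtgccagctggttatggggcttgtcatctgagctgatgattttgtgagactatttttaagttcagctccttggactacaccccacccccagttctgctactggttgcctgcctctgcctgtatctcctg
Pgam1: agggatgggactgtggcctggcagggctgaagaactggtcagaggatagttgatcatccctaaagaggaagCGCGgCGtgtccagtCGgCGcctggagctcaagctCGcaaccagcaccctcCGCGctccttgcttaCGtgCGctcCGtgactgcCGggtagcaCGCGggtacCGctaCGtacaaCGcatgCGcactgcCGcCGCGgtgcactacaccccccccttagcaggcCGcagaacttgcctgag
Eno3: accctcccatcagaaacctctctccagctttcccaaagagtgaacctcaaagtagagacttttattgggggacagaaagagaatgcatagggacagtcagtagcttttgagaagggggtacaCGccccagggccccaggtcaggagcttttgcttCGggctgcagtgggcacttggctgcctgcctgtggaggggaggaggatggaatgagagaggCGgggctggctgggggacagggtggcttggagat
Eno2: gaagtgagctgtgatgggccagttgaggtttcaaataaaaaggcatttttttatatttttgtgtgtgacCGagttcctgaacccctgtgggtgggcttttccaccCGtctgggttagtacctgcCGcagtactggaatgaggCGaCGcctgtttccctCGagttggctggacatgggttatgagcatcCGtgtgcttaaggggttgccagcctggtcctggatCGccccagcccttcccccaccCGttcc
Within these 250 bases *Pgam2* had 1 CpG and *Pgam1* 22, and *Eno3* had 3 and *Eno2* 9. *Eno1*, the ubiquitous enolase, has 3 windows of 300 bases, with 14, 24 and 25. Methylation of these windows was not analysed here, and the CpG number is a description of the sequence only. Low CpG number did not go with a higher value throughout. *Pfkm*, lowest in ratio, has 4 windows with 4 to 12 CpG dinucleotides, *Aldoa*, also lower, has windows with 0, 23 and 24, *Hk1* has a window with 1 and another with 20, and *Aldoc*, higher in *Dnmt1*-KO, has windows with 3 and 8.

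**Figure D3:**
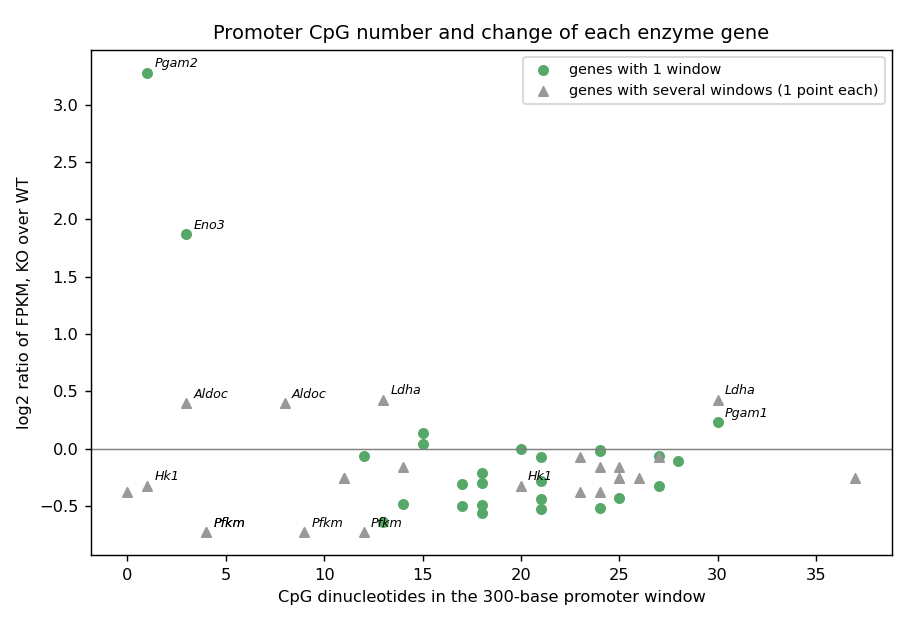
Number of CpG dinucleotides in each 300-base RefSeq promoter window against the log2 ratio of FPKM, *Dnmt1*-KO over *Dnmt1*-WT, of its gene. Circles are genes with 1 window and triangles are windows of genes with several. *Pgam2* (1 CpG) and *Eno3* (3 CpG) lie apart from the other genes with 1 window, which hold 12 or more.

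The lactate dehydrogenase genes differed in opposite directions and left the sum almost the same. *Ldha* encodes the M subunit, typical of tissues that make lactate, and *Ldhb* the H subunit, typical of heart and other oxidative tissues. The 4 subunits of the enzyme can be any mixture of both. *Ldha*, on chromosome 7 from 46841475 to 46855627, was at 173 FPKM in *Dnmt1*-WT and 233 FPKM in *Dnmt1*-KO, a ratio of 1.34. *Ldhb*, on chromosome 6 from 142490249 to 142507957, was at 188 and 132 FPKM, a ratio of 0.705. Neither reached 1.5-fold alone, though *Ldhb* did, at 0.658, when each library was divided by its FPKM sum. The subunits were near balance in the *Dnmt1*-WT library, with *Ldha* 0.924 times *Ldhb*, and *Ldha* was 1.76 times *Ldhb* in the *Dnmt1*-KO library. In shares, *Ldhb* made up 52.0% of the sum in *Dnmt1*-WT and 36.2% in *Dnmt1*-KO, a difference of 15.8 points, the largest shift in any of the 7 isozyme families compared. The sum itself was 361 and 365 FPKM. *Ldha* has near-identical stretches in 4 other annotated genes and *Ldhb* in 1, none of them above 0 FPKM in the table.

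**Figure D4:**
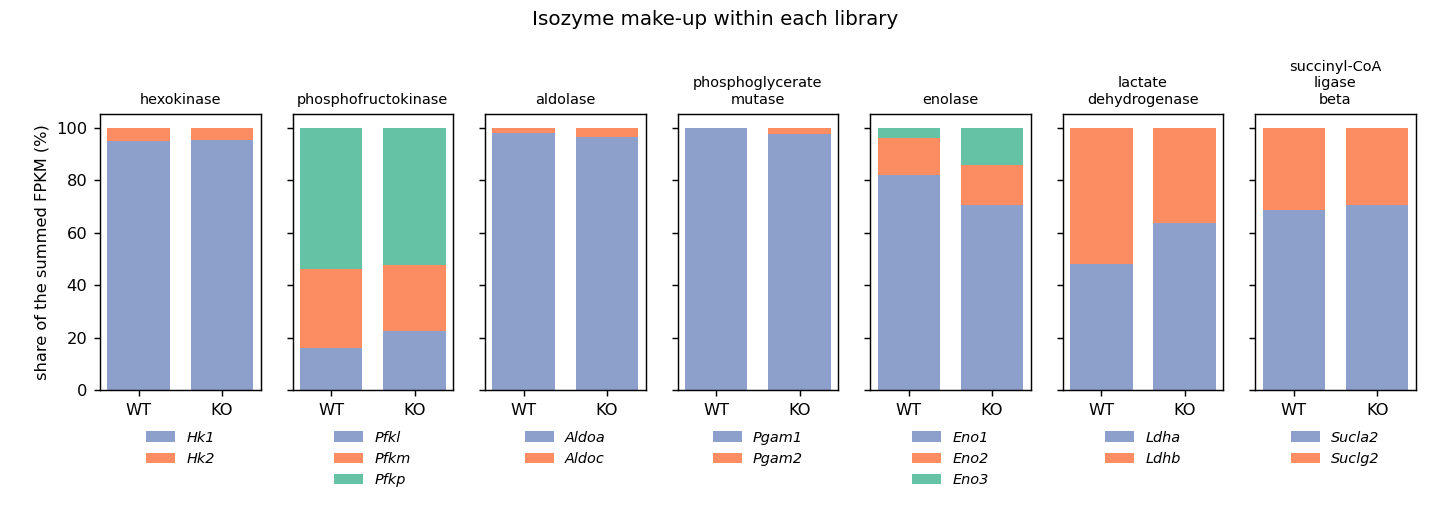
Share of each isozyme gene in the summed FPKM of its family (percent, bars from 0 to 100) in the *Dnmt1*-WT and *Dnmt1*-KO libraries, for 7 families. The share of *Ldhb* is 52.0% and 36.2%, that of *Eno3* 4.08% and 14.4%, and hexokinase and succinyl-CoA ligase differ little.

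Upstream of *Ldha* lie several copies of ACGTG, a form of the core that hypoxia-inducible factors and related proteins are known to recognise. The 250 bases before the first of the 2 *Ldha* starts (chr7:46845554-46845803, plus strand) and before the *Ldhb* start (chr6:142507958-142508207, minus strand) are shown because the genes differ in opposite directions, with ACGTG on either strand in capitals.
Ldha: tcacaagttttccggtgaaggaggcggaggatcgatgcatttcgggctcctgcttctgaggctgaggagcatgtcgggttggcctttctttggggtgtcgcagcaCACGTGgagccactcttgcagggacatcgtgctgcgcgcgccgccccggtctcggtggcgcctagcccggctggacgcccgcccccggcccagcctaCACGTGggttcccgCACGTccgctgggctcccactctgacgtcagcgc
Ldhb: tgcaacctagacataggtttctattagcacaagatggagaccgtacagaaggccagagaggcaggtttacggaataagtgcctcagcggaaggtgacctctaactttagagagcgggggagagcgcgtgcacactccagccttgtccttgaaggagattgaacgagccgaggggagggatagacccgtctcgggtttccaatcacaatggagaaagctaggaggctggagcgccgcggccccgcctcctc
The *Ldha* stretch held 3 places with ACGTG and the *Ldhb* stretch none. Only ACGTG was searched for, and the *Ldhb* stretch does hold GCGTG, which differs from it in the first base. In the full windows, ACGTG on either strand was found in 14 of the 34 genes, and in 21 of their 50 windows (42.0%), against 19.6% of all windows. Genes with many overlapping windows weigh on that share, and of the 26 genes with a single window 7 held it (26.9%). It occurred in at least 1 window for 10 of 19 genes of glycolysis and lactate dehydrogenase and for 4 of 15 of the complex and the cycle. These 2 counts are not alike, since more genes of the first group have several windows. Those are *Hk1*, *Pfkm*, *Aldoa*, *Aldoc*, *Eno1*, *Pkm* and *Ldha*, and in the second group only *Ogdh*. Among genes with a single window, *Hk2*, *Gapdh*, *Pgk1* and *Pgam1* held it, as did *Idh3g*, *Mdh1* and *Pdhb*. The E-box CACGTG, which contains ACGTG, was in 5 windows of 3 genes (and in 7.15% of all windows), and GGGCGG, the GC box, in 27 windows of 22 genes (and in 35.7% of all windows). A CArG box, the SRF motif, was in 1 window, that of *Ldha*, and in 1.63% of all windows. Each of these motifs but the CArG box contains a CpG dinucleotide. The median CpG number was 19 in the windows of the enzyme genes and 7 in all windows. All windows are therefore not a like background for the shares of those motifs. Windows of like CpG number were not compared. A match is a sequence feature, and binding was not measured.

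The pyruvate dehydrogenase complex had lower values for each subunit gene but hardly for *Pdhb*. *Pdha1*, the X-linked E1 alpha subunit that carries the regulatory phosphorylation sites, was at 112 FPKM in *Dnmt1*-WT and 82.8 FPKM in *Dnmt1*-KO (ratio 0.738). *Pdhb*, the E1 beta subunit, was at 67.0 and 65.9 FPKM (ratio 0.983), and median centring or upper quartile scaling put it just above 1. Since alpha and beta form 1 enzyme, the quotient of *Pdha1* to *Pdhb* is of interest, and it was 1.68 and 1.26. *Dlat*, the E2 acetyltransferase core, was at 22.4 and 16.0 FPKM (ratio 0.713), and *Dld*, the E3 subunit shared with the oxoglutarate complex, at 45.7 and 37.0 FPKM (ratio 0.810). The 4 genes together went from 247 to 202 FPKM, 0.815 times as high.

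In the TCA cycle all 12 genes had a ratio below 1, from 0.642 for *Suclg2* to 0.959 for *Mdh2*, and their sum went from 1078 to 897 FPKM. *Cs*, citrate synthase, the entry of the cycle, was at 103 FPKM in *Dnmt1*-WT and 88.8 FPKM in *Dnmt1*-KO (ratio 0.865). Isocitrate dehydrogenase with NAD, the first oxidative decarboxylation, is built of the catalytic alpha subunit *Idh3a* (36.8 and 31.1 FPKM, ratio 0.845) and the subunits *Idh3b* and *Idh3g*. *Idh3b* was at 102 and 69.3 FPKM (ratio 0.677), just inside the 1.5-fold band, and *Idh3g* at 103 and 82.3 FPKM (ratio 0.797). The beta and gamma genes, at nearly equal levels in *Dnmt1*-WT (quotient 0.992), were less balanced in *Dnmt1*-KO (0.842). For the oxoglutarate dehydrogenase complex, *Ogdh*, its E1 subunit, was at 73.5 and 61.6 FPKM (ratio 0.838) and *Dlst*, its E2 subunit, at 57.6 and 53.5 FPKM (ratio 0.929).

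Succinyl-CoA ligase is the only step of the cycle that makes a nucleoside triphosphate directly. *Suclg1*, the shared alpha subunit, was at 107.7 and 87.0 FPKM (ratio 0.807). The beta subunit that sets ADP specificity, *Sucla2*, was at 52.6 and 36.7 FPKM (ratio 0.697). *Suclg2*, the beta subunit for GDP, on chromosome 6 from 95473009 to 95718800, was at 23.9 and 15.4 FPKM, and its ratio of 0.642 was the only one of the cycle past 1.5-fold. Both beta subunits were lower in like proportion, since *Sucla2* made up 68.7% and 70.5% of their sum, which was 0.680 times as high. *Fh1*, fumarase, was at 67.0 and 48.0 FPKM (ratio 0.716). The mitochondrial malate dehydrogenase *Mdh2*, the most abundant gene of the cycle, was at 261 and 250.2 FPKM, while the cytosolic *Mdh1*, a part of the malate-aspartate shuttle, was at 89.3 and 73.3 FPKM (ratio 0.821). Without *Mdh1*, which is not a mitochondrial enzyme, 15 of 15 genes of the complex and the cycle had a ratio below 1 and the median log2 ratio was still -0.31.

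Succinate dehydrogenase, the cycle enzyme that is also part of the respiratory chain, was in a further list and had ratios below 1 as well. The 4 succinate dehydrogenase subunit genes *Sdha*, *Sdhb*, *Sdhc* and *Sdhd*, which form respiratory complex II, had ratios between 0.832 for *Sdha* and 0.952 for *Sdhb*. For the 35 genes, scaling turned few directions. Under 6 other scalings or pseudocounts 31 of the 35 genes kept their direction in each, and of the 16 genes of the complex and the cycle, 15 did, *Pdhb* being the exception. Dividing by the FPKM sum, which lowered all log2 ratios by 0.10, raised the number of genes lower by 1.5-fold from 2 to 7, with *Pfkp*, *Ldhb*, *Dlat*, *Idh3b* and *Sucla2* added.

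Genes that feed or control the pathway were examined in lists outside the 35, which held 70 listed genes. Of the 67 above 0 FPKM in both libraries, 12 were higher and 9 lower by 1.5-fold or more, with a median log2 ratio of -0.04. These counts are near the shares among all genes, 19.7% higher and 12.6% lower. Among 7 glucose and lactate transporters, the most abundant was *Slc2a4* (GLUT4, the insulin-responsive carrier) at 89.7 and 62.4 FPKM (ratio 0.696), while *Slc2a1* (GLUT1) was at 7.93 and 10.9 FPKM and *Slc2a3* (GLUT3) at 13.1 and 15.8 FPKM. The lactate exporter *Slc16a3* (MCT4) was at 2.63 and 4.36 FPKM (ratio 1.66), and *Slc16a7* (MCT2), a high-affinity importer of pyruvate and lactate, at 7.13 and 3.67 FPKM (ratio 0.515). *Slc16a1* (MCT1) was at 29.2 and 20.4 FPKM (ratio 0.698). Thus 1 transporter was past 1.5-fold on each side.

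The pyruvate switch list held the kinases and phosphatases of the pyruvate dehydrogenase complex, its binding protein and the mitochondrial pyruvate carrier. Of its 10 genes 9 were below 1, beside 49.1% of all genes, and 2 were lower by 1.5-fold, beside 12.6%. The latter number was 3 with FPKM sum scaling and 1 with a pseudocount of 1. *Pdk3*, a kinase that inactivates the complex, was at 27.6 FPKM in *Dnmt1*-WT and 13.5 FPKM in *Dnmt1*-KO (ratio 0.489). *Pdk2*, the most abundant of these kinases, was at 46.5 and 31.7 FPKM (ratio 0.683). *Pdp1*, the opposing phosphatase, was lower too, at 7.35 and 4.73 FPKM (ratio 0.644). The carrier genes *Mpc1* and *Mpc2* differed little, at 73.2 and 66.6 FPKM and at 68.6 and 63.7 FPKM. Of 6 regulators of glycolysis, *Pfkfb1* was at 0.54 and 1.14 FPKM, and *Tigar*, listed under its older symbol *9630033F20Rik*, which lowers the activator of phosphofructokinase, at 14.6 and 8.43 FPKM (ratio 0.579). *Hif1a* was at 19.3 and 17.0 FPKM.

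Side branches of glucose metabolism differed in direction. Of 10 glycogen genes 7 were below 1, beside 49.1% of all genes, and 3 were lower by 1.5-fold, beside 12.6%, among them *Pygb* (brain glycogen phosphorylase, 143 and 72.6 FPKM, ratio 0.507) and *Pygm* (the muscle form, 48.4 and 28.03 FPKM, ratio 0.580). Of 7 pentose phosphate genes 5 were above 1, beside 50.3% of all genes, with a median log2 ratio of 0.45. None was past 1.5-fold, beside 32.3% of all genes either way. Median centring and upper quartile scaling each put 1 past it on the higher side, and FPKM sum scaling 1 on the lower side. The NADPH-producing enzymes *G6pdx* and *Pgd* were at 8.70 and 12.9 FPKM (ratio 1.48) and at 27.2 and 39.7 FPKM (ratio 1.46), and *Tkt*, transketolase, at 36.0 and 50.4 FPKM (ratio 1.4). The sum of the glycogen genes went from 354 to 239.6 FPKM, and that of the pentose phosphate genes from 211 to 273 FPKM.

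Genes that run glycolysis backwards or draw carbon into and out of the cycle held the largest ratios of these further lists. Of 6 gluconeogenesis genes 5 were above 1, beside 50.3% of all genes, and 3 were higher by 1.5-fold, beside 19.7%. *Pck1*, cytosolic phosphoenolpyruvate carboxykinase, was at 3.93 FPKM in *Dnmt1*-WT and 26.9 FPKM in *Dnmt1*-KO (ratio 6.84), and *Pcx*, pyruvate carboxylase, at 2.46 and 13.3 FPKM (ratio 5.39). *Acly*, which exports citrate carbon for lipid synthesis, was at 39.6 and 69.6 FPKM (ratio 1.76), and the cytosolic *Idh1* at 18.2 and 27.4 FPKM (ratio 1.5), which fell short of the fold with trimmed mean or FPKM sum scaling or a pseudocount. *Fbp2*, the muscle fructose bisphosphatase, was at 2.45 and 7.91 FPKM (ratio 3.23), and *Fbp1*, the liver form, at 1.99 and 4.37 FPKM (ratio 2.20). *Pck2*, the mitochondrial carboxykinase, was at 17.0 and 11.4 FPKM (ratio 0.671), and FPKM sum or trimmed mean scaling put it past 1.5-fold on the lower side. The mitochondrial malic enzyme *Me3* was lower, at 3.07 and 0.79 FPKM (ratio 0.257). *Pck1*, *Pcx* and *Acly* are also expressed in fat cells, whose 8 marker genes had sums of 119 and 1229.6 FPKM, with all 7 above 0 in both libraries higher and *Lep* listed at 0 in *Dnmt1*-WT and at 0.2 FPKM in *Dnmt1*-KO. Enterocyte markers, 7 of 8 of them higher, had sums of 477 and 1036 FPKM. The part of these cell types in the values was not tested.

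Isozymes of other tissues, outside the 35, had all 7 ratios above 1, beside 50.3% of all genes, at low levels. By 1.5-fold or more 4 of the 7 were higher, beside 19.7% of all genes. That number was 2 with a pseudocount of 1 and 0 with a minimum of 10 FPKM. *Hk3*, a hexokinase of leukocytes, was at 0.43 and 1.51 FPKM (ratio 3.51), beside leukocyte markers of which 8 of 8 were higher. *Hkdc1* was at 0.65 and 2.08 FPKM and *Pklr*, the pyruvate kinase of liver and red cells, at 1.02 and 1.71 FPKM. *Bpgm*, which makes the bisphosphoglycerate of red cells, was at 13.8 and 18.8 FPKM (ratio 1.36). Of 7 erythroid markers, the 4 above 0 FPKM in both libraries were higher in *Dnmt1*-KO, and the sum of the list was 172 and 562 FPKM. The near-identical globin genes among them cannot be told apart with certainty, and *Hbb-b1* had 46.4 FPKM for *Dnmt1*-WT but was listed at 0 for *Dnmt1*-KO. The part of leukocyte and red cell RNA in these values was not tested. Testis isozymes were at or near 0, with *Ldhc* and *Gapdhs* listed at 0 in both libraries and *Ldhal6b* at 0.05 and 0.03 FPKM.

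**Figure D5:**
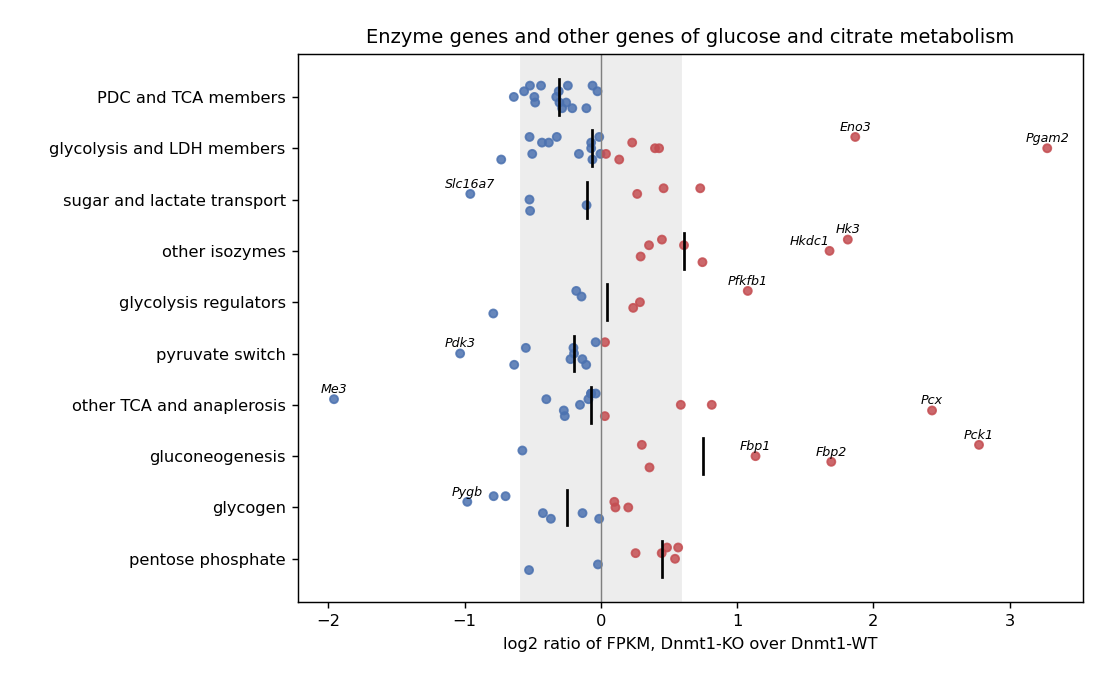
Log2 ratio of FPKM, *Dnmt1*-KO over *Dnmt1*-WT, of the 35 enzyme genes (upper 2 lines) and of other genes of glucose and citrate metabolism above 0 FPKM in both libraries, by list. Points are genes, vertical bars are list medians and the shaded band is within 1.5-fold. Median bars lie at -0.31 for PDC and TCA members, -0.06 for glycolysis and LDH members, -0.25 for glycogen and 0.45 for pentose phosphate genes.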

How the data were processed

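The labels' notes name TopHat 1.4.1, Cufflinks 2.0.2 and mm10. Libraries were made with the TruSeq RNA kit from mirVana RNA, and which tool made the FPKM is not given in the sources used here. The authors deposited FPKM per gene, the number of transcript variants per gene and library, and their own ratio, which was not used. The sources do not say how RNA of the 4 mice per genotype was combined. The members and all lists were chosen with earlier results of these data known.

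Ratios are plain quotients of FPKM without rescaling or pseudocount over genes above 0 in both libraries, a call is a difference of at least 1.5-fold, and list medians are of log2 ratios. With 1 library per genotype no test was possible. All 35 members are named. Marker lists are given as counts and sums, and the marker genes named were chosen after their values were seen. From each further list the genes past 1.5-fold with at least 1 FPKM in 1 library are named, with up to 4 others by mean level. *G6pdx* and *Sdhd* fall outside this rule and were named after their values were seen. Values of some single genes of these lists are not reported here. Gene symbols were matched to GENCODE M21 (GRCm38, the build of mm10). Near-identical means at least 97% identity over 100 bases in a transcript of another gene (BLAST 2.17.0). Alternatives were median centring, a trimmed mean (30% of ratios and 5% of levels), upper quartile, FPKM sum, pseudocounts of 0.1 and 1, a minimum of 10 FPKM in either library, and 2-fold. Counting was tested on simulated data. Python 3.11.15, numpy 2.4.6, pandas 2.3.3 and matplotlib 3.10.9 were used. The number of columns of values without a sample was 0.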

Additional observations from a re-analysis of the deposited data

How the results depend on the processing

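With FPKM sum scaling, the genes lower by 1.5-fold numbered 7 of the 35 (3 of glycolysis and lactate dehydrogenase, 4 of the pyruvate dehydrogenase complex and TCA cycle), the median log2 ratios were -0.34, -0.16 and -0.41 in that order, and the summed FPKM ratios of the latter groups were 0.863 and 0.773. Median centring and upper quartile each gave 1 gene of the complex and the cycle a ratio above 1, *Pdhb*. Of the 35 genes, 4 changed direction under a scaling, *Pfkl*, *Tpi1*, *Pgk1* and *Pdhb*. A minimum of 10 FPKM in either library left 1 gene higher by 1.5-fold, *Eno3*, also within glycolysis and lactate dehydrogenase. At 2-fold, 0 genes were lower in the 35 or in either group. The median log2 ratios of the 35 genes and of both groups stayed below 0 under every scaling and pseudocount tried. Of the further lists, FPKM sum scaling gave 3 transporters lower by 1.5-fold, and a pseudocount of 1 gave 0 higher. The 4 other isozymes higher by 1.5-fold were 2 with a pseudocount of 1 and 0 with the minimum of 10 FPKM. The median of the glycolysis regulators, 0.05, was -0.05 with FPKM sum scaling and -0.18 with that minimum. For gluconeogenesis, the minimum of 10 FPKM left 1 of the 3 genes higher by 1.5-fold and took the median log2 ratio from 0.75 to 0.30. It took the median of the glycogen genes from -0.25 to -0.40. No paired analysis was possible because each genotype has 1 library. Read counts per gene are unknown, which limits values near 0, such as *Pgam2* in *Dnmt1*-WT, most.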

Other observations

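The table also gives the number of transcript variants found for each gene in each library. It was equal in both libraries for 27 of the 35 enzyme genes, 15 of them with 1 variant in each. It was lower in *Dnmt1*-KO for *Pfkp* (5 and 4), *Eno2* (3 and 2), *Eno3* (4 and 3) and *Suclg1* (3 and 2), and higher for *Gpi1* (2 and 3), *Aldoc* (1 and 2), *Ldha* (2 and 3) and *Mdh1* (1 and 2). Over the 16102 genes above 0 FPKM in both libraries, 13.6% had fewer variants in *Dnmt1*-KO and 12.5% more. The *Dnmt1*-KO library had fewer mapped reads by the paper's summary, and the part of depth in these numbers was not tested. The variants are not named in the table, and FPKM per variant were not analysed here.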
